A study of Danio rerio with 6 samples.

Results

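miR-126, miR-221 and miR-222 are microRNAs known from blood vessels, and their levels were followed here in whole zebrafish embryos injected with a morpholino against tbx5a. They were chosen by name, as every mature miRNA of the deposited table named miR-126, miR-221 or miR-222 with any letter or arm. The rule gave 6 of the 230 mature miRNAs, dre-miR-126a-5p, dre-miR-126a-3p, dre-miR-126b-5p, dre-miR-126b-3p, dre-miR-221 and dre-miR-222a, written below without the species prefix. Small RNA was sequenced from wild-type embryos of the AB strain that had received 1.5 ng of MO-Tbx5a, an antisense oligonucleotide meant to block translation of tbx5a, or 1.5 ng of the control morpholino MO-Ct, into the yolk at the 1-cell stage. Each library pooled 50 whole embryos, with 2 batches per morpholino at 24 hpf (hours post fertilization) and a single library per morpholino at 48 hpf. All embryos were therefore injected, and none served as an uninjected control.

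miR-126 is enriched in endothelial cells of vertebrates. In zebrafish its loss weakens vessel walls, and it represses Spred1 and Pik3r2, which restrain signalling downstream of VEGF. Its hairpin is cut into a 5p and a 3p strand, either of which can be loaded into Argonaute. miR-221 and miR-222 come from neighbouring hairpins, share a seed, and are known in human endothelial cells for repressing KIT and the cell cycle inhibitor p27. In zebrafish, miR-221 acts in endothelial tip cells during sprouting. In RefSeq annotation of the assembly GRCz12tu, mir126b lies inside egfl7, an endothelial gene, mir126a lies inside a long non-coding RNA, and the hairpins of miR-221 and miR-222a are direct neighbours with no annotated gene between them. The RefSeq table also lists mir222b, for which no value was analysed here.

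The deposited values are reads divided by a size factor per library and are called normalized reads. On the scale where 1 read is the common step of a library's values, the libraries held an estimated 1699876 to 3148888 reads on mature miRNAs. The study itself lists fewer miRNA reads for every library, so this estimate may be too high. The miR-430 family, which clears maternal mRNAs, took 46.0% to 58.7% of the normalized reads at 24 hpf and 5.15% to 15.2% at 48 hpf. A comparison between the stages therefore depends on whether libraries are scaled with or without that family. Nothing in small RNA values measures Tbx5a protein, so the values themselves cannot check the knockdown. Whether the values of other miRNAs bear on the labels at 48 hpf was not tested. The sources used here leave doubt about which of the libraries at 48 hpf received which morpholino. Directions between them are given as labelled, in the text and the figures, with the value for exchanged labels beside only some of them. All should be read as unsigned until that is settled. No labelled cell type could be checked either, since the libraries are of whole embryos. Fewer cells of a type and less RNA per cell cannot be told apart in such bulk samples.

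miR-222a was by far the most abundant of the 6. At 24 hpf it had 30017 and 28921 normalized reads in MO-Ct batches 1 and 2 and 27398 and 31230 in MO-Tbx5a batches 1 and 2, where it ranked between 10th and 12th of all miRNAs and made up 0.861% to 1.11% of a library. At 48 hpf it had 14852 under the MO-Ct label and 6607 under the MO-Tbx5a label, with ranks of 16 and 28. In the same order it made up 1.25% and 0.622% of the library. The morpholino groups overlapped at 24 hpf, and both libraries at 48 hpf lay below all 4 at 24 hpf. Its neighbour miR-221 was an order lower, with 3162 and 3511 normalized reads in the MO-Ct batches and 2907 and 3610 in the MO-Tbx5a batches at 24 hpf. At 48 hpf miR-221 had 2272 under the MO-Ct label and 1512 under the MO-Tbx5a label. As for miR-222a, both late libraries lay under every early one on the deposited size factors. As a share of the library the order of miR-221 was the reverse, with 0.0914% to 0.131% at 24 hpf and 0.142% to 0.192% at 48 hpf.

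The strands of miR-126 differed in level. miR-126a-5p had 2824 and 3091 normalized reads in MO-Ct batches 1 and 2 and 3084 and 3415 in the MO-Tbx5a batches at 24 hpf. At 48 hpf it had 2317 under the MO-Ct label and 1551 under the MO-Tbx5a label, both below all early libraries. Its share of the library was instead higher, with 0.0886% to 0.121% at 24 hpf and 0.146% to 0.195% at 48 hpf. miR-126a-3p had 802 and 922 in the MO-Ct batches and 973 and 1061 in the MO-Tbx5a batches at 24 hpf. At 48 hpf it had 895 and 740 in the libraries labelled MO-Ct and MO-Tbx5a, and the stages overlapped. miR-126b-3p was the lowest, with 178 and 211 in the MO-Ct batches and 230 and 219 in the MO-Tbx5a batches at 24 hpf, and 125 and 107 in the libraries labelled MO-Ct and MO-Tbx5a at 48 hpf. On the step scale it rested on an estimated 123 to 269 reads per library, with a counting error alone of 6.10% to 9.02% of the value. The study lists fewer miRNA reads per library, and with fewer reads behind the values this error would be larger.

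**Figure D1:**
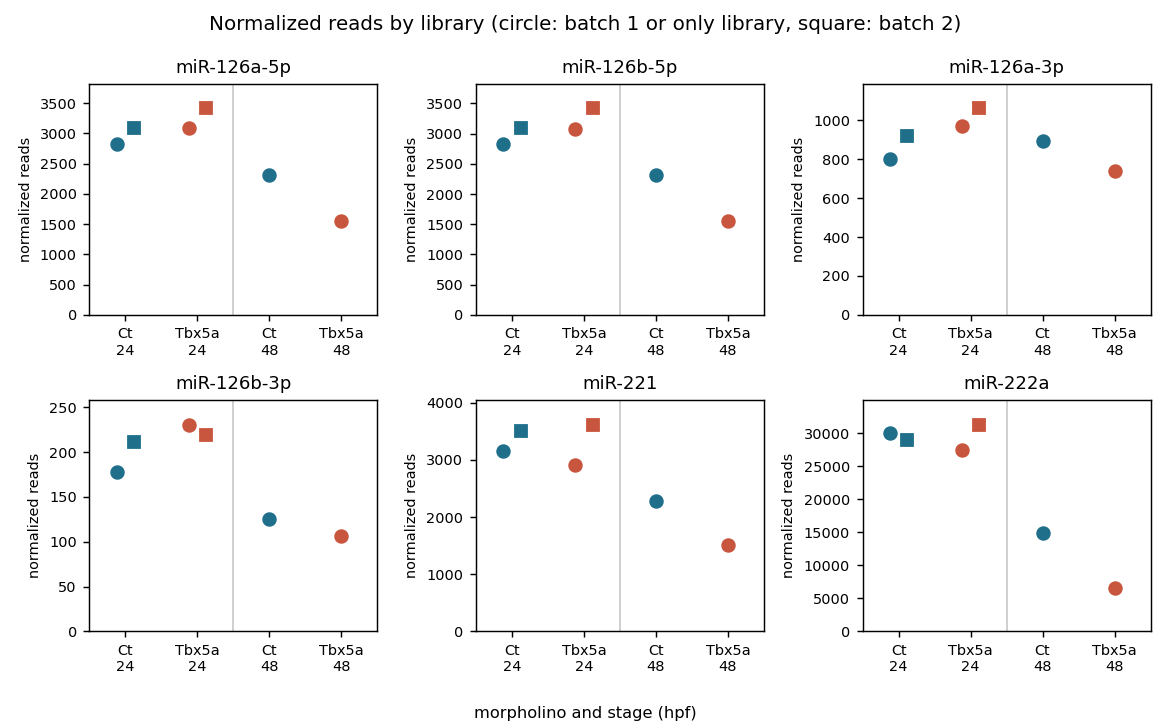
Normalized reads (linear axis from 0) of the 6 miRNAs in each of the 6 libraries, by morpholino (blue MO-Ct, red MO-Tbx5a) and stage, with a point per library. On the deposited size factors, all but miR-126a-3p are lower in both libraries at 48 hpf than in any library at 24 hpf. miR-222a is lowest at 48 hpf under the MO-Tbx5a label, with 6607.

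The values of miR-126b-5p are almost those of miR-126a-5p. The estimated reads of these rows differed by 0 to 3 per library, at most 0.0787% of the reads of miR-126a-5p. Of 195 miRNAs that reached 10 normalized reads in every library, this was the only pair of differently named mature miRNAs that lay within 1% of each other in all 6 libraries. The files do not say whether reads were counted for both rows, but the 5p rows cannot be treated as separate measurements of the hairpins. They are described as 1 value from here on, whereas the 3p rows of the hairpins differed several-fold. Whether the 3p rows also share reads was not tested.

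At 24 hpf the question was whether depletion of Tbx5a changed these miRNAs. None of the 6 passed the test, in which 16 of 210 miRNAs, or 7.62%, were called at an adjusted p under 0.05 by limma, a linear model fitted to log2 of the normalized reads plus 2 (the pseudocount understates changes of low miRNAs). Of the 16, 7 were higher and 9 lower in MO-Tbx5a, which with median-ratio size factors became 3 and 14. At an unadjusted p under 0.05 there were 44. For miR-222a the log2 fold change was -0.01 (standard error, SE, 0.15, limma adjusted p = 0.974), and for miR-221 it was -0.04 (SE 0.16, limma adjusted p = 0.897). Both signs turned positive when libraries were scaled to their totals without miR-430, which moved the median of all miRNAs from -0.01 to 0.17. For miR-126a-5p the log2 fold change was 0.14 (SE 0.16, limma adjusted p = 0.672), for miR-126a-3p it was 0.24 (SE 0.18, limma adjusted p = 0.488) and for miR-126b-3p it was 0.21 (SE 0.24, limma adjusted p = 0.672). Both 3p miRNAs were higher in each MO-Tbx5a batch than in either MO-Ct batch. The morpholino groups were separated, in either direction, for 52.4% of all miRNAs tested. Permuting 2 libraries against 2 exactly gives no p under 0.333, and limma's p rests on a spread shared among miRNAs.

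At 48 hpf each morpholino had 1 library, so no test was made and a ratio of at least 2-fold was counted, which 56 of 219 miRNAs, or 25.6%, reached in either direction. In the direction in which it lay, lower in the library labelled MO-Tbx5a, 9.13% did. Of the 6, miR-222a alone reached it, with a log2 ratio of -1.17, where its batches at 24 hpf differed by 0.05 in MO-Ct and 0.19 in MO-Tbx5a. With the labels exchanged, its log2 ratio would be 1.17. The log2 ratio was -0.59 for miR-221, -0.58 for miR-126a-5p, -0.27 for miR-126a-3p and -0.23 for miR-126b-3p. All of the 6, with the 5p rows counted apart, were lower under the MO-Tbx5a label, where 114 of all 219 miRNAs were. Their median log2 ratio was -0.58 against -0.06 over all miRNAs. With exchanged labels all 6 would be higher, with a median of 0.58. In the same libraries the summed level of the 3 neural miRNAs (miR-9-5p, miR-9-3p and miR-124) was 46880 normalized reads under the MO-Tbx5a label and 11639 under the MO-Ct label, against 2049 to 3153 at 24 hpf. The order of these sums turns with the labels as well. The sum of 8 muscle miRNAs was 10515 and 13111, against 6856 to 9520 at 24 hpf, and that of 8 blood miRNAs 602 and 343, against 362 to 509. In the same order, miR-9-5p alone held 44772 and 11063 of the neural sums and miR-133a-3p 7518 and 8369 of the muscle sums. Of the blood sums miR-451 held 299 and 106. All 8 muscle miRNAs were lower under the MO-Tbx5a label, but only 3 of the 8 blood miRNAs were. The part of these other tissues in the ratios of the 6 miRNAs was not tested.

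**Figure D2:**
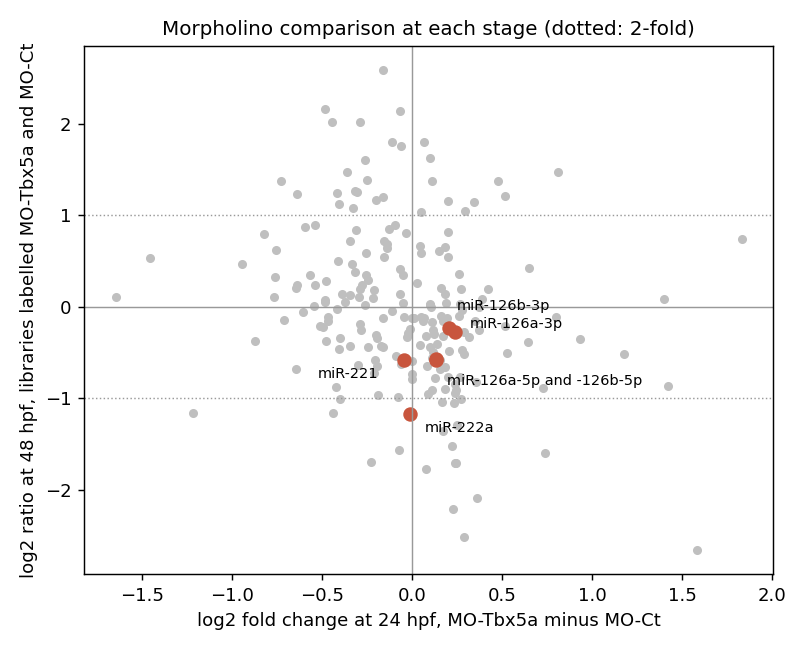
Log2 fold change of MO-Tbx5a against MO-Ct at 24 hpf (horizontal axis) and log2 ratio of the libraries labelled MO-Tbx5a and MO-Ct at 48 hpf (vertical axis) for 209 miRNAs measured in both, with the 6 miRNAs chosen by name in red and dotted lines at 2-fold. The 6 lie between -0.04 and 0.24 at 24 hpf, and miR-222a is the only one below the 2-fold line at 48 hpf, at -1.17.

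The morpholino comparison was called different between the stages for miR-222a, though not in a fit without a trend of the variance over the level. In a fit of all 6 libraries with a mean per stage and morpholino, the log2 difference between its change at 48 hpf and at 24 hpf was -1.16 (SE 0.27, limma adjusted p = 0.000183). For miR-126a-5p the difference was -0.71 (SE 0.29, limma adjusted p = 0.0407), and for miR-221 it was -0.55 (SE 0.29, limma adjusted p = 0.140). Neither 3p miRNA passed, with differences of -0.51 for miR-126a-3p and -0.44 for miR-126b-3p. The p-values of this fit use a spread shared among miRNAs of like level, with no weight on the spread of each. With median-ratio size factors or library totals the difference of miR-126a-5p was -0.52 and was not called. In this fit 33.2% of 214 miRNAs were called, and the lone libraries at 48 hpf are assumed to vary as those at 24 hpf do. The call for miR-222a was lost without MO-Ct batch 1 (-1.18, limma adjusted p = 0.0501) or MO-Ct batch 2 (-1.13, limma adjusted p = 0.0550), and that for miR-126a-5p without any 1 of the 4 early libraries, with differences from -0.79 to -0.64. If the labels at 48 hpf were exchanged, the sign would turn for each of the 6, and the size would change. The difference would be 1.18 for miR-222a and 0.63 for miR-221. It would shrink to 0.44 for miR-126a-5p, 0.032 for miR-126a-3p and 0.022 for miR-126b-3p.

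Between the stages, 5 of the 6 names were called lower at 48 hpf, which counts the coinciding 5p rows apart. The fit included both morpholinos, and 112 of 214 miRNAs, or 52.3%, were called, with 33.6% of all tested lower and 18.7% higher at 48 hpf. The log2 change from 24 to 48 hpf was -1.57 for miR-222a (SE 0.27, limma adjusted p = 0.00370) and -0.82 for miR-221 (SE 0.20, limma adjusted p = 0.0122). It was -0.71 for miR-126a-5p (SE 0.21, limma adjusted p = 0.0268) and -0.84 for miR-126b-3p (SE 0.24, limma adjusted p = 0.0213). For miR-126a-3p it was -0.20 (SE 0.20, limma adjusted p = 0.438). Those called did not overlap between the stages, which held for 65% of all miRNAs and, lower at 48 hpf, for 39.7%. By an exact two-sided permutation over the 15 ways to choose 2 of 6 libraries, each of the 5 had p = 0.0667, the smallest this design allows (0.08 after Benjamini-Hochberg adjustment over the 6).

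The level left at 48 hpf was taken within each morpholino, on the deposited size factors only. In MO-Ct, miR-222a at 48 hpf stood at 50.4% of its mean at 24 hpf, miR-221 at 68.1%, miR-126a-5p at 78.3%, miR-126b-3p at 64.4% and miR-126a-3p at 104%. In the libraries labelled MO-Tbx5a the same values were 22.5%, 46.4%, 47.7%, 47.6% and 72.7%. With exchanged labels they would be 22.4%, 45.3%, 52.4%, 54.8% and 85.9% in MO-Ct and 50.7%, 69.7%, 71.3%, 55.9% and 88.0% in MO-Tbx5a. Which morpholino has the lower shares depends on the labels. Without the 48 hpf library labelled MO-Tbx5a, the stage change of miR-126a-5p was -0.35 (limma adjusted p = 0.132), that of miR-126b-3p was -0.62 (limma adjusted p = 0.0686), and that of miR-126a-3p was 0.06. The calls for miR-126a-5p and miR-126b-3p were also lost without MO-Ct batch 2 or either MO-Tbx5a batch at 24 hpf, with changes from -0.73 to -0.62 and from -0.82 to -0.79. That for miR-221 was lost without MO-Tbx5a batch 2 (-0.72, limma adjusted p = 0.0507), and miR-222a stayed called without any 1 library, with changes from -2.15 to -0.99.

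The sign of the fitted stage change, taken over both morpholinos, depended on the scaling for all of these miRNAs except miR-222a. With library totals, in which miR-430 is counted, the median log2 change of all miRNAs moved from -0.29 to 1.11, and the change became 0.69 for miR-126a-5p, 1.20 for miR-126a-3p, 0.54 for miR-126b-3p and 0.57 for miR-221. That of miR-222a was -0.17 (limma adjusted p = 0.570), a mean over late libraries that lay on both sides of the early ones. Its share of the library was 1.25% at 48 hpf under the MO-Ct label and 0.622% under the MO-Tbx5a label, against 0.861% to 1.11% at 24 hpf. Under that scaling miR-126a-3p and the 5p names were called higher, and 154 miRNAs were called higher and 12 lower where the deposited values gave 40 and 72. With totals that leave out miR-430 the median was 0.21, 63 miRNAs were called higher and 33 lower, and of the 6 only miR-222a was called, with -1.09 (limma adjusted p = 0.0233). With median-ratio size factors the median was 0.03, 53 were called higher and 50 lower, and again of the 6 only miR-222a was called, with -1.26 (limma adjusted p = 0.00879). A scaling shifts all miRNAs by nearly the same amount, so the distance of each from the median is by construction almost the same under all 4 and is given as its place, not as a sign of stability. This log2 distance was -1.29 to -1.28 for miR-222a, -0.55 to -0.53 for miR-221, -0.57 to -0.55 for miR-126b-3p, -0.43 to -0.42 for miR-126a-5p and 0.08 to 0.09 for miR-126a-3p.

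**Figure D3:**
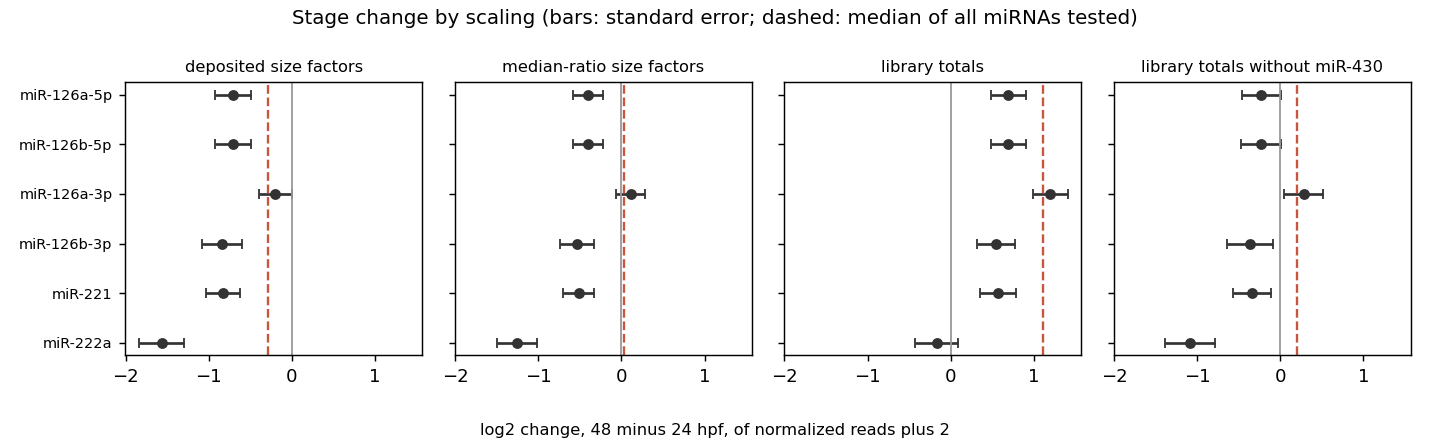
Log2 change from 24 to 48 hpf of each of the 6 miRNAs (points, with standard errors from limma) under 4 scalings of the libraries, with the median of all miRNAs tested as a dashed red line and 0 as a grey line. By construction the points move with the dashed line from panel to panel, with miR-126a-3p beside it and miR-222a to its left, at -1.29 to -1.28 from it.

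Ratios within a library do not depend on its size factor. The stages did not overlap in 6 of the 9 computed, where 65% of single miRNAs separated the stages. No such share was computed over ratios of other miRNAs, so the count is not a result about these members. The 9 also share miRNAs, 1 sets the coinciding 5p rows against each other, and 1 was chosen after the values were seen. The ratio of miR-222a to miR-221 was 9.49 and 8.24 in MO-Ct batches 1 and 2 and 9.43 and 8.65 in MO-Tbx5a batches 1 and 2 at 24 hpf, against 6.54 and 4.37 in the libraries labelled MO-Ct and MO-Tbx5a at 48 hpf. Both late values lay below the early range, a mean log2 difference of -0.74 where the SD among the early libraries was 0.10 (n = 4 libraries). The ratio of miR-126a-3p to miR-126b-3p was 4.23 to 4.86 at 24 hpf and 6.93 to 7.13 at 48 hpf, a mean log2 difference of 0.65. The ratio of miR-221 to miR-126a-3p was 2.99 to 3.94 at 24 hpf and 2.04 to 2.54 at 48 hpf, and that of miR-222a to miR-126a-3p was 28.2 to 37.4 and then 8.93 to 16.6. For each of the 6 the exact permutation p was 0.0667, the smallest that the design allows, or 0.1 after Benjamini-Hochberg adjustment over the 9. By morpholino at 24 hpf the log2 differences of the 9 ratios lay between -0.28 and 0.03, and no exact permutation test of 2 libraries against 2 could have passed. miR-221 and miR-126a-5p kept nearly equal levels, with a ratio of 0.942 to 1.14 at 24 hpf and 0.975 to 0.981 at 48 hpf (exact permutation p = 0.333 between the stages).

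The ratio of the 5p row to the 3p row of miR-126a was lower at 48 hpf. It cannot be assigned to this hairpin alone, since the 5p rows nearly coincide. At 24 hpf it was 3.52 and 3.35 in MO-Ct batches 1 and 2 and 3.17 and 3.22 in the MO-Tbx5a batches. At 48 hpf it was 2.59 and 2.10 in the libraries labelled MO-Ct and MO-Tbx5a. Among 24 hairpins with both strands measured, 9, or 37.5%, changed their strand ratio between the stages by limma, and 16.7% did so towards the 3p strand. For miR-126a the log2 change was -0.51 (SE 0.20, limma adjusted p = 0.0387), against a median of 0.29 over all 24. The call was lost without MO-Ct batch 1, either MO-Tbx5a batch at 24 hpf or the library labelled MO-Tbx5a at 48 hpf, with changes from -0.51 to -0.41. Since the 5p row may hold reads of both hairpins, it was also set against the sum of both 3p rows, a choice made after the values were seen. That ratio was 2.56 to 2.88 at 24 hpf and 1.83 to 2.27 at 48 hpf. Its log2 change of -0.41 was not called (limma adjusted p = 0.104). For miR-126b, with nearly the same 5p values, the ratio of 5p to 3p was 13.4 to 15.9 at 24 hpf and 14.5 to 18.5 at 48 hpf. Its log2 change of 0.13 did not pass (limma adjusted p = 0.601). By morpholino at 24 hpf, 0 of the 24 strand ratios were called by limma and 3 had an unadjusted p under 0.05. The log2 change was -0.11 for miR-126a (SE 0.15) and -0.07 for miR-126b (SE 0.17).

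**Figure D4:**
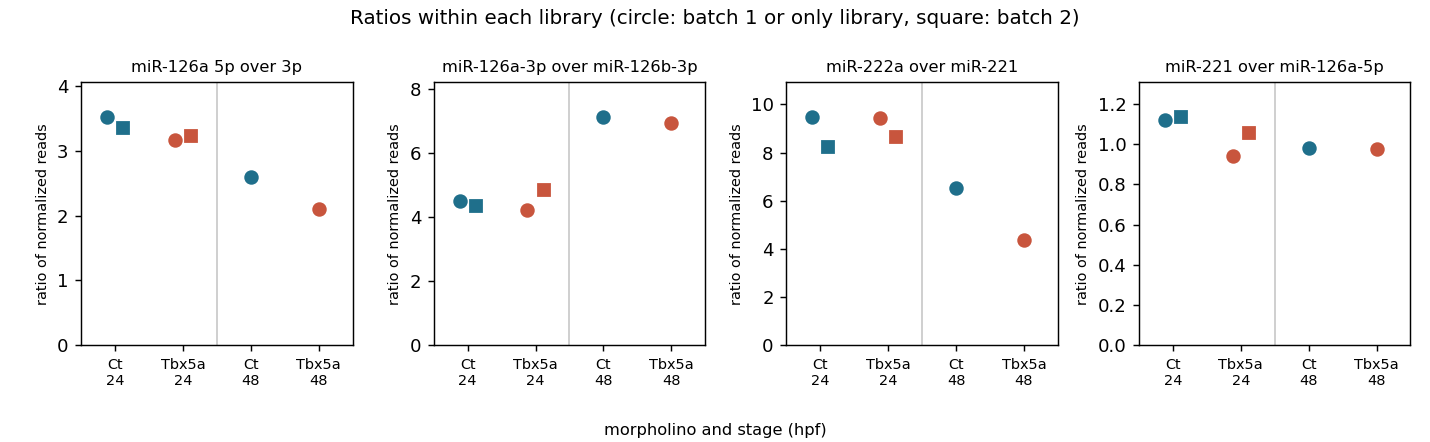
Ratios of normalized reads within each library (linear axes from 0), with a point per library by morpholino (blue MO-Ct, red MO-Tbx5a) and stage. At 48 hpf miR-222a over miR-221 (4.37 and 6.54) and miR-126a 5p over 3p (2.10 and 2.59) lie below their values at 24 hpf, miR-126a-3p over miR-126b-3p lies above, and miR-221 over miR-126a-5p stays within its early range.

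Profiles over the 6 libraries were compared by the root mean square distance between log2 values, each centred on its mean. Outside the 6, the nearest of 208 miRNAs to miR-126a-5p were miR-24 (0.10), miR-27a (0.12) and miR-130b (0.15), where the median distance was 0.50. The nearest to miR-126b-3p were miR-24 (0.06), miR-30e-5p (0.14) and miR-130a (0.15). miR-221 lay nearest to miR-10c (0.10), miR-24 (0.13) and miR-10b (0.16), and at 0.10 from miR-126a-5p. miR-126a-3p lay nearest to miR-454a (0.10), miR-152 (0.11) and miR-140-5p (0.13). miR-222a lay nearest to miR-203b-5p (0.14), miR-203a (0.16) and miR-19b-5p (0.19), and at 0.39 from its neighbour miR-221. It lay at 0.45 from miR-126a-5p and at 0.71 from miR-126a-3p, where its median distance to the 208 was 0.76. miR-24 was among the nearest for miR-126a-5p, miR-126b-3p and miR-221. These points share the libraries, so the distances describe the libraries only.

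Of 24 other miRNAs with known roles in vessels (members of miR-10, miR-21, miR-23, miR-24, miR-27, miR-130, miR-143, miR-145, miR-210 and miR-218), 3 were called lower and 0 higher at 24 hpf in MO-Tbx5a embryos by limma, or 12.5% lower where 4.29% of all miRNAs were. The 3 were miR-210-5p and miR-210-3p, strands of the same hairpin, and miR-10d-5p. The largest change was that of miR-210-5p, a miRNA induced by hypoxia (log2 fold change -1.64, limma adjusted p = 2.41e-07). Its own batches lay far apart, with a log2 difference of batch 2 minus batch 1 of -1.74 in MO-Ct and -0.88 in MO-Tbx5a. The p-value rests on a spread shared among miRNAs and does not measure that gap. When either MO-Ct batch was left out, limma called no miRNA at 24 hpf. miR-210-5p was called under no other scaling, with changes from -1.71 to -1.46, and none of the 24 was called with library totals, with or without miR-430. Between the stages 3 were called higher and 8 lower at 48 hpf, with a median log2 change of -0.36 against -0.29 over all miRNAs. The shares of 12.5% higher and 33.3% lower lie near or under those of all miRNAs, 18.7% and 33.6%. With library totals 20 were called higher and 0 lower, or 83.3% higher where 69.7% of all miRNAs were. miR-143, a miRNA of smooth muscle, rose by a log2 change of 2.65 (SE 0.23, limma adjusted p = 0.000324) and was called higher under all 4 scalings. miR-10a-3p had the largest fall (log2 change -1.43, limma adjusted p = 0.00328), which with library totals was -0.04 (limma adjusted p = 0.835). Of the 7 blood miRNAs tested, 1 (14.3%) was called higher and 2 (28.6%) lower, the former being miR-451 of red cells (log2 change 2.78, limma adjusted p = 0.00336), also higher under all 4 scalings. miR-155 fell by 1.92 on the log2 scale (limma adjusted p = 0.00532) and was not called with library totals (limma adjusted p = 0.126). Of the 8 muscle miRNAs 2 (25%) were called higher and 2 (25%) lower, led by miR-1 (log2 change 2.28) and miR-133b-5p (log2 change -3.59). The 3 neural miRNAs were called higher, led by miR-9-5p (log2 change 3.22). The changes of these 3 leading miRNAs of muscle and nerve kept their sign and their call under all 4 scalings.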

How the data were processed

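Adapters were trimmed with Cutadapt by the authors, reads holding an uncalled base were dropped, and miRExpress placed the others on zebrafish miRBase precursors at a set identity. Reads were summed per miRNA. The deposited signal is this sum divided by 1 size factor per library. Apart from 1 value in each library at 48 hpf, all values were whole multiples (within 0.05 reads) of a step, which served to estimate depth only. No test for counts was used.

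Rows were averaged per mature name. Groups are those of the sample labels. Log2(value + 2) was modelled in limma 3.58.1 (R 4.3.3, trended variance) for miRNAs with at least 10 in at least 2 libraries (1 at 48 hpf, where no test was made), with two-sided p adjusted over all of them by the Benjamini-Hochberg method. Strand ratios were fitted likewise. For the difference of effects and the strand ratios between the stages, the fitted spread came from the shared trend alone. The fits of single miRNAs at 24 hpf and between the stages were tested on simulated data with a fixed spread. The fits of the difference of effects and of the strand ratios were not. Per the study's methods the batches at 24 hpf were independent. The estimated depth gives the counting error only, which leaves out the variation between pools of embryos. Named miRNAs are all members, the 3 nearest profiles of each, and the called miRNA with the largest change per list and direction. The members and lists were chosen with earlier results of these data known. Alternatives were other scalings, pseudocounts, filters, fits, fold limits and leaving out each library. Sequences and the seed groups of the rule were not analysed here.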

Additional observations from a re-analysis of the deposited data

Results flagged for a closer look

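The difference between the morpholino effects at 48 and 24 hpf was flagged for miR-222a (-1.16 on the log2 scale), miR-126a-5p (-0.71) and miR-126b-5p (-0.71). By absolute size these ranked 56th, 105th and 106th of 214 miRNAs, so the 5p names were of middling size. The 5p names hold nearly the same values and count as 1 observation. The differences come from an interaction term with 1 library per morpholino at 48 hpf. If the labels of these libraries, which are in doubt, are exchanged, the difference becomes 1.18 for miR-222a and shrinks to 0.44 for miR-126a-5p. With library totals that of miR-126a-5p was -0.52 (adjusted p = 0.287 from limma), and without the variance trend neither passed, with adjusted p of 0.0623 for miR-222a and 0.170 for miR-126a-5p from limma.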

How the results depend on the processing

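With library totals 0 miRNAs were called at 24 hpf against 16 reported, with totals that leave out miR-430 2, without the variance trend 1, 0 without either MO-Ct batch, and 5 or 14 when batch 1 or batch 2 of MO-Tbx5a was left out. With the replicate block, the batch number as a term, 39 were called (12 higher, 27 lower), and none of the 6 miRNAs chosen by name was among them. Over 210 miRNAs, batch 2 minus batch 1 in MO-Ct and in MO-Tbx5a had r = 0.28, and the labels do not say that equal numbers share anything. The number whose morpholino effect differed between stages, 71, was 47 with library totals, 30 without the trend 21 without MO-Ct batch 1, 15 without MO-Ct batch 2, and 44 or 58 when batch 1 or batch 2 of MO-Tbx5a was left out. At 48 hpf, 105 miRNAs passed 1.5-fold and 23 passed 3-fold, where 56 passed 2-fold. Stage changes were called for 86 to 149 miRNAs when a library was left out, and strand ratios for 4 to 9 by stage, 5 without the trend, and 0 or 1 at 24 hpf.

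At 24 hpf the log2 fold changes of miR-221 and miR-222a were 0.15 and 0.18 with totals without miR-430, and ranged from -0.20 to 0.12 and from -0.10 to 0.084 when a library was left out. The stage change of miR-126a-3p was 1.20 with library totals, 0.28 with totals without miR-430, 0.11 with median-ratio factors and between -0.46 and 0.058 when a library was left out. With library totals it was 0.69 for miR-126a-5p and miR-126b-5p, 0.54 for miR-126b-3p and 0.57 for miR-221. The strand ratio of miR-126b ranged from -0.18 to 0.039 at 24 hpf and from -0.0068 to 0.27 by stage when a library was left out. With the labels at 48 hpf exchanged, the differences of effects were 0.032 for miR-126a-3p, 0.44 for both 5p names, 0.022 for miR-126b-3p, 0.63 for miR-221 and 1.18 for miR-222a. The cause was not tested for any of these. miR-222a passed 2-fold at 48 hpf under each scaling, with log2 ratios from -1.17 to -1.01.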
